A study of Homo sapiens with 36 samples.

Results

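The response of transcripts to ultraviolet light (UV) was set side by side in a pair of clones of the human glioblastoma line U373, and the quantity described here is the difference of that response between them. U373cc3 cells express CC3 (also called TIP30, gene HTATIP2) constitutively, and U373neo cells carry the empty vector. According to the study, the parental line makes no CC3 and lacks functional p53, and both clones share this background. The 4 groups were U373cc3 2 h after UV at 20 J/m2, untreated U373cc3, U373neo 2 h after UV at 20 J/m2, and untreated U373neo. The dose is that of the sample labels and of the legend to the study's list of UV-changed genes, and the methods of the study give a lower one. Each group had 3 biological replicates, and the RNA of each replicate was hybridized to 3 arrays of a 1-dye human oligonucleotide chip. All 36 arrays of the series enter the comparison, 9 a group, and the 3 arrays of a replicate were averaged, so that 12 replicates were compared. For each of 11602 probes with values on all 36 arrays, the UV change of U373neo (UV minus untreated, log2) was subtracted from the UV change of U373cc3. A negative difference therefore means that the UV change was lower in U373cc3, whichever way the transcript moved. Each state of CC3 is represented by 1 clone, so CC3 and other properties of the clones cannot be told apart, and the replicates measure the spread between harvests of a clone.

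UV light joins neighbouring pyrimidines of DNA, and such lesions in a transcribed strand stall RNA polymerase II until they are removed by nucleotide excision repair. A long transcription unit offers more bases to be hit than a short one. UV also switches on MAP kinase signalling, and the immediate early genes, most of them short and with unstable RNAs, answer within minutes without new protein synthesis. Among them are the FOS and JUN families, whose proteins pair to form the factor AP-1, and dual-specificity phosphatases that switch the kinases off again. CC3 is known as a metastasis suppressor that binds nuclear import receptors.

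The probe for HTATIP2 is blank on all 36 arrays, so the label of the clones could not be checked on the transcript itself. Technical arrays of 1 RNA correlated at r = 0.978 to 0.997, replicates of a group at 0.972 to 0.996 and arrays of different groups at 0.920 to 0.978. The mean SD of the 3 replicates was 0.131 (U373cc3 UV), 0.118 (U373cc3 untreated), 0.120 (U373neo UV) and 0.144 (U373neo untreated) on the log2 scale. The values are intensities with no counts behind them, and the number of arrays limits their precision. Of the marker lists for cell types, 6 of 17 astrocyte and glioma markers had values on all arrays, as did 9 of 12 of neurons, 4 of 9 of melanocytes, 2 of 9 of leukocytes and 0 of 10 of epithelium. Serial numbers in the labels place the arrays in 3 ranges, called A, B and C here. All 9 arrays of U373neo after UV lie in range A, whereas the arrays of U373cc3 after UV lie 3 in A and 6 in B, those of untreated U373cc3 4 in A, 4 in B and 1 in C, and those of untreated U373neo 5 in A, 1 in B and 3 in C. Range A is therefore the only one that holds all groups, but its U373cc3 UV arrays are the 3 technical arrays of replicate 3. Values within range A thus set 1 biological sample of that group against the others, come from arrays that also enter the full comparison, and are given with no test.

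The UV change differed between the clones for 716 of 11602 probes (6.17%) by limma at an adjusted p under 0.05. It was lower in U373cc3 for 463 probes, 3.99% of those tested, and higher for 253, or 2.18%. At an unadjusted p under 0.05 the number was 2856. Differences were mostly small, since 13 of the lower and 16 of the higher probes reached 2-fold. The median over all probes was -0.03. Quantile normalization of all arrays together sets their centre, so this median cannot show a shift common to all probes. The count depended on single replicates, being 230 without U373neo UV replicate 2, 275 without U373neo UV replicate 3, 289 without U373cc3 untreated replicate 2 and 977 without U373neo UV replicate 1. A fit of the arrays of range A alone called 994 probes, of which 443 were among the 716, and since its U373cc3 UV group is 1 biological sample, nothing is drawn from its calls.

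Most probes with a lower UV change in U373cc3 were those that rose in U373neo. Their median UV change was -0.17 in U373cc3 and 0.44 in U373neo (log2). Of the 463, 136 rose in U373neo without passing in U373cc3, 112 rose in both clones, 106 fell in U373cc3 without passing in U373neo, 65 fell in both, and 44 fell in U373cc3 while rising in U373neo. The 253 probes with a higher UV change were mostly transcripts that UV lowered. Their median UV change was -0.30 in U373cc3 and -0.87 in U373neo, and 145 fell in both clones, 59 fell in U373neo without passing in U373cc3, 29 rose in U373cc3 without passing in U373neo, 14 rose in U373cc3 while falling in U373neo, and 6 rose in both. The difference shares all its replicates with both UV changes, so these medians describe how it arose and are no separate evidence.

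**Figure D1:**
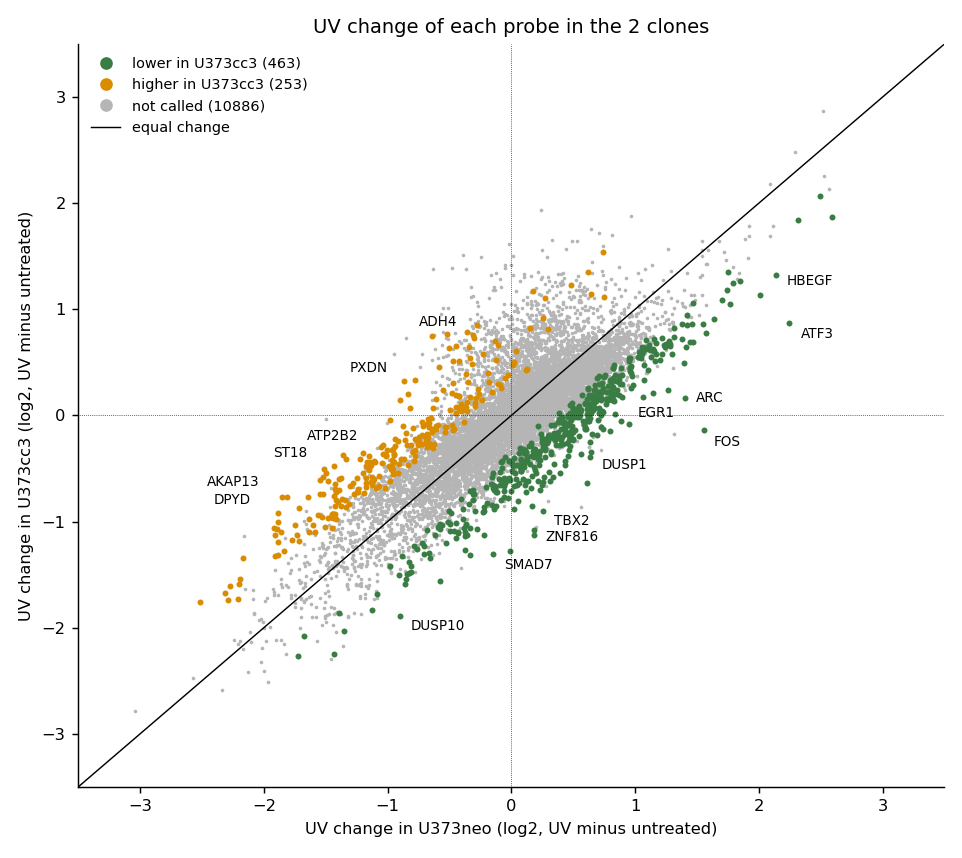
UV change of each of 11602 probes in U373cc3 (vertical axis) against U373neo (horizontal axis), both as log2 of UV over untreated from the means of 3 replicates a group. The 463 green points lie below the line of equal change and the 253 orange points above it. FOS stands farthest below the line, at -0.14 in U373cc3 and 1.56 in U373neo.

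Of 7998 genes with a named probe, 335 had a lower UV change in U373cc3 (4.19%) and 187 a higher one (2.34%), the brightest probe standing for a gene. Immediate early genes held more of the lower calls than that share. Of 42 genes listed, 27 were measured. The difference was lower for 12 and higher for 1, and 14 did not pass. Without UV, 20 of the 27 stood higher in U373cc3 than in U373neo. The median of U373cc3 minus U373neo was 0.81 without UV and 0.17 after it. The list had a median difference of -0.44, against -0.04 over all genes. It was written with earlier results of these data known, and its count is a description.

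FOS, which encodes the FOS subunit of AP-1, had the most negative difference of all named genes. Its intensity was 5420, 5504 and 5018 in U373cc3 after UV, against 5432, 5826 and 6357 in untreated U373cc3. In U373neo it was 1096, 1317 and 1254 after UV, against 420, 423 and 398 without. The groups overlapped in U373cc3 and stood apart in U373neo, and every U373cc3 value, with or without UV, lay above every U373neo value. The UV change was -0.14 (SE 0.08, adjusted p = 0.167) in U373cc3 and 1.56 (SE 0.08, adjusted p = 6.26e-08) in U373neo, a rise of 2.95-fold. The difference was -1.70 (SE 0.12, adjusted p = 8.84e-05), and the value within range A was -1.73. FOS was 14.2-fold higher in U373cc3 than in U373neo without UV, and 4.36-fold higher after UV.

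EGR1, a zinc finger transcription factor of the immediate early class, showed the same arrangement. It had 7308, 8752 and 7717 in U373cc3 after UV, against 6676, 9547 and 9164 in untreated U373cc3, and these groups overlapped. In U373neo it had 1236, 1224 and 1233 after UV, against 605, 636 and 672 without, with no overlap. The difference was -1.03 (SE 0.17, adjusted p = 0.00962). ARC, an activity-regulated cytoskeletal protein, had 1224, 1282 and 1307 in U373cc3 after UV, against 1136, 1161 and 1107 untreated. In U373neo it had 382, 425 and 421 after UV, against 154, 152 and 158 untreated. It rose in both clones, by 0.16 in U373cc3 and by 1.40 in U373neo, and the difference was -1.24 (SE 0.09, adjusted p = 8.84e-05).

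ATF3, a stress-induced factor of the ATF/CREB family, reached a like level after UV from unequal starting levels. It had 5243, 4917 and 4150 in U373cc3 after UV and 4590, 4674 and 4376 in U373neo after UV, and these ranges overlapped (difference after UV 0.06, adjusted p = 0.606). Without UV it had 2536, 2550 and 2713 in U373cc3, against 918, 1017 and 941 in U373neo. The rise was 1.83-fold in U373cc3 and 4.75-fold in U373neo, a difference of -1.38 (SE 0.12, adjusted p = 0.000409). HBEGF, a ligand of the EGF receptor, behaved alike in that both clones raised it, 2.51-fold in U373cc3 and 4.41-fold in U373neo, with a difference of -0.82 (SE 0.09, adjusted p = 0.00237). SNAI1, a repressor of epithelial genes, had 2058, 2140 and 2115 in U373cc3 after UV, against 1050, 860.9 and 972 untreated, and 2304, 2178 and 2274 in U373neo after UV, against 528.9, 620.5 and 531 untreated. Its UV change of 1.14 in U373cc3 and 2.01 in U373neo differed by -0.88 (adjusted p = 0.00489).

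The other lower members were FOSB (-0.90), KLF10 (-0.86), TRIB1 (-0.79), IER2 (-0.75), ZFP36 (-0.73) and IER5 (-0.37). FOSB encodes another partner of AP-1, KLF10 a repressor of the Krüppel-like family, and ZFP36 a protein that speeds the decay of AU-rich mRNAs. KLF10, TRIB1 and ZFP36 fell in U373cc3 (by 0.43, 0.32 and 0.24 on the log2 scale) and rose in U373neo (0.43, 0.46 and 0.50). BTG2, an antiproliferative gene, was the 1 member with a higher UV change in U373cc3. It had 4574, 4427 and 4492 in U373cc3 after UV, against 3616, 4043 and 4133 untreated, and 4375, 4312 and 4749 in U373neo after UV, against 6023, 5069 and 5088 untreated, a difference of 0.46 (adjusted p = 0.0424). Members that did not pass included MYC, which fell in both clones to a like extent (-1.23 in U373cc3, -1.26 in U373neo, difference 0.02), and JUN (-0.33, adjusted p = 0.138), the main partner of FOS. The count of lower members lay between 10 and 15 under the alternatives with an adjusted p.

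The promoters of FOS and EGR1, and of the phosphatase gene DUSP1 described next, are shown because these 3 short genes rose in U373neo and did not rise in U373cc3, and because the elements by which signalling reaches immediate early genes lie near their starts. Each is the 250 bases before the transcription start on GRCh38.p14, read along the gene. Capitals mark matches on either strand to the cAMP response element TGACGTCA, to the CArG box (the core of the serum response element) and to the TATA box TATAAA. FOS lies at chr14:75278578-75278827 (plus strand) with a TATA box from 33 to 28 bases before the start. EGR1 lies at chr5:138465229-138465478 (plus strand) with CArG boxes from 105 to 96 and from 83 to 74 bases before the start. DUSP1 lies at chr5:172771196-172771445 (minus strand) with a cAMP response element from 125 to 118 and a TATA box from 30 to 25 bases before the start.
FOS: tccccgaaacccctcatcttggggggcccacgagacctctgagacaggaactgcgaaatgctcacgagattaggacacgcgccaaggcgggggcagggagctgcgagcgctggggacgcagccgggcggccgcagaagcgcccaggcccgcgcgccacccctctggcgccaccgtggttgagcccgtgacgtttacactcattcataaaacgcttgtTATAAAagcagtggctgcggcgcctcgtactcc
EGR1: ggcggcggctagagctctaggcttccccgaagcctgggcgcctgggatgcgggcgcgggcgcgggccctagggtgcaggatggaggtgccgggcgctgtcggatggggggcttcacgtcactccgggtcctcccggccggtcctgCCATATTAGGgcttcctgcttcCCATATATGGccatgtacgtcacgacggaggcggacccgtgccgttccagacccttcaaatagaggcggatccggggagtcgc
DUSP1: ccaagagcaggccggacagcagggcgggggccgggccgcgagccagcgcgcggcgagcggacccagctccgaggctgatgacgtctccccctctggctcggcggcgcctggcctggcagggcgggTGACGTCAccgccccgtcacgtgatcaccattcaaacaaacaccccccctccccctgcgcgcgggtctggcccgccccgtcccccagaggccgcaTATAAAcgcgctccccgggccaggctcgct
Of 8 lower immediate early genes with a promoter in the table, 1 held a CArG box, 2 a TATA box and 0 the cAMP response element in this window. Of the 274 lower genes with a promoter in the table, 4.01% held the cAMP response element, 1.46% a CArG box and 5.84% a TATA box in this window. The shares were 1.96%, 0.654% and 6.54% of the 153 higher genes, and 3.08%, 1.05% and 5.22% of all 6680 genes tested that had one. The NF-kappaB site was found in 10.2% of the lower, 13.7% of the higher and 11.7% of all promoters. The AP-1 site TGANTCA, which does not overlap the response element in these letters, was found in 3.65%, 3.27% and 3.35%. A match is not a site of binding and a window without one is not evidence of its absence from the gene, and the shares were not tested.

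Phosphatases and other brakes of signalling were the second group. Of 15 measured members of a list of 25, 8 had a lower UV change in U373cc3, 0 a higher one and 7 did not pass, with a median of -0.51. Without UV, 14 of the 15 stood higher in U373cc3 than in U373neo. The median of U373cc3 minus U373neo was 0.69 without UV and 0.37 after it. Over all genes 4.19% were lower and 2.34% higher. DUSP1, which dephosphorylates p38 and JNK, had 5429, 5166 and 4698 in U373cc3 after UV, against 6230, 6877 and 6949 untreated. In U373neo it had 3605, 3617 and 3198 after UV, against 2055, 2402 and 2240 untreated. It thus fell in U373cc3 (-0.39, adjusted p = 0.00248) and rose in U373neo (0.64, adjusted p = 6e-05), with no overlap of the groups in either clone, and the difference was -1.03 (SE 0.12, adjusted p = 0.00237). DUSP2, a nuclear phosphatase of ERK, fell in U373cc3 to 4442, 4696 and 4027 after UV, against 7172, 8481 and 8680 untreated. In U373neo it had 1915, 1870 and 1911 after UV, against 1879, 1882 and 1844, and these overlapped. Its difference was -0.91 (SE 0.12, adjusted p = 0.00285).

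DUSP10 fell in both clones, to 255, 280 and 173 in U373cc3 after UV, against 717, 904 and 972 untreated, and to 118, 111 and 107 in U373neo, against 231, 182 and 217 untreated. Its difference of -0.99 (adjusted p = 0.0357) passed with 5 of the 12 replicates left out in turn, the largest adjusted p being 0.0815. RGS2, a regulator of G protein signalling, rose 1.62-fold in U373cc3 and 2.77-fold in U373neo (difference -0.77, SE 0.13, adjusted p = 0.00929). ERRFI1, a feedback inhibitor of the EGF receptor, had a UV change of 0.04 in U373cc3 and of 0.73 in U373neo (difference -0.69, adjusted p = 0.0349). The remaining called members were RGS16 (-0.60), DUSP14 (-0.45) and DUSP3 (-0.44). DUSP16, SPRY2, SPRED2, RGS3, DUSP4, DUSP8 and PHLDA1 did not pass, with differences between -0.62 and 0.06. This count was less stable than that of the immediate early genes, at 3 without U373cc3 untreated replicate 2, without U373neo UV replicate 2, without U373neo UV replicate 3 or without U373neo untreated replicate 2.

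**Figure D2:**
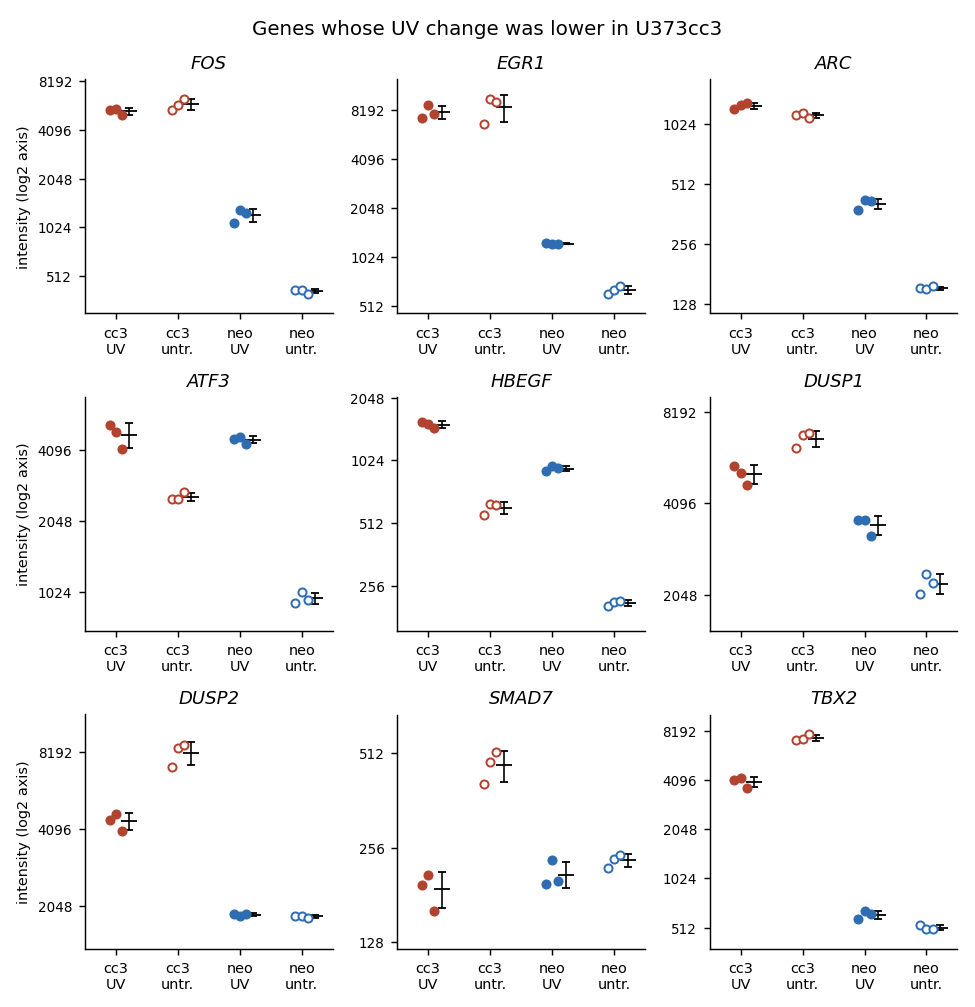
Intensity (log2 axis) of 9 genes in each of 3 replicates a group, as points (U373cc3 red, U373neo blue, UV filled, untreated open), with the mean and SD as a black bar beside them. For FOS, EGR1 and ARC the U373cc3 groups lie close together and far above the U373neo groups, whereas DUSP2, SMAD7 and TBX2 fell in U373cc3 (UV changes of -0.88, -1.31 and -0.90) and had UV changes of 0.02, -0.15 and 0.26 in U373neo.

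The other genes among the 12 most negative called differences included TBX2, PAX9, SMAD7 and ADM. The probes of PAX9, SMAD7 and ADM are among the dimmest 0.25 of probes. TBX2, a T-box repressor, fell in U373cc3 to 4092, 4211 and 3659 after UV, against 7198, 7351 and 7822 untreated, and rose in U373neo to 575, 648 and 620, against 532, 505 and 502 untreated. The difference was -1.16 (SE 0.11, adjusted p = 0.000409), and TBX2 stayed 6.48-fold higher in U373cc3 after UV, against 14.5-fold higher without UV. PAX9, a paired box factor, also moved in opposite directions, to 150, 173 and 153 in U373cc3 after UV, against 204, 210 and 191 untreated, and to 179, 210 and 209 in U373neo, against 133, 118 and 130 untreated (difference -0.99, adjusted p = 0.00269). SMAD7, the feedback inhibitor of TGF-beta receptors, fell in U373cc3 to 195, 210 and 161, against 409, 478 and 514 untreated. In U373neo its UV change was -0.15 (adjusted p = 0.278), with 196, 233 and 201 after UV, against 221, 235 and 243, so the clones overlapped after UV and stood apart without it. The difference was -1.16 (SE 0.16, adjusted p = 0.00496).

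SMAD7 and ID1 were the only called members among 15 measured genes of TGF-beta and BMP feedback, whose median was -0.34. Both were lower, as were 4.19% of all genes. ID1, a target of BMP signalling, fell to 25553, 31230 and 29483 in U373cc3 after UV, against 63307, 56622 and 58790 untreated, and to 39113, 40470 and 38914 in U373neo, against 59573, 56507 and 62562 (difference -0.46, adjusted p = 0.0398). Some of its untreated values are over 60000, near the upper end of the scanner's range. It passed with 2 of the 12 replicates left out in turn. ADM, the vasodilator peptide adrenomedullin, rose in both clones, to 205, 195 and 192 in U373cc3 after UV, against 170, 167 and 165 untreated, and to 311, 329 and 357 in U373neo, against 134, 144 and 135 (difference -1.03, SE 0.10, adjusted p = 0.000423).

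ZNF816 and ZNF26 were the genes with a ZNF name among the 12 most negative differences of called genes. ZNF816 fell in U373cc3 to 154, 113 and 112 after UV, against 314, 262 and 248 untreated, and overlapped in U373neo, with 280, 233 and 257 after UV, against 224, 233 and 218 (difference -1.32, SE 0.18, adjusted p = 0.00491). ZNF26 fell in both clones, 0.401 of the untreated level being left in U373cc3 and 0.792 in U373neo (difference -0.98, adjusted p = 0.0131). A list of all genes named ZNF and a number, drawn up after these were seen, held 193 measured genes. Of them 37 had a lower UV change in U373cc3, 0 a higher one, and 156 did not pass, with a median difference of -0.29. Over all genes 4.19% were lower and 2.34% higher, and in the dimmest of 4 classes of mean intensity 7.35% and 1.00%. UV lowered 100 and raised 28 of the 193 zinc finger genes in U373cc3, where 30.0% of all genes fell and 27.9% rose. It lowered 64 and raised 57 in U373neo, where 30.1% of all genes fell and 32.2% rose. ZNF606 had 127.2, 130.3 and 125 in U373cc3 after UV, against 193.2, 180.3 and 199.1 untreated, and 127.2, 121.1 and 129.7 in U373neo after UV, against 108.6, 102.2 and 89.84 untreated. Its UV change of -0.58 in U373cc3 and of 0.33 in U373neo passed in both, and the difference was -0.92 (adjusted p = 0.00237). The count of 37 fell to 11 without U373neo UV replicate 3, and was 22 without the dimmest 0.25 of probes. Many of these probes are dim, and related genes of the family can share sequence, so cross-hybridization of their probes was not tested.

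Several of the transcripts with a higher UV change in U373cc3 came from long genes that fell less there. ST18, a zinc finger factor, had 1958, 1978 and 1843 in U373cc3 after UV, against 2716, 2711 and 2789 untreated, and 830, 817 and 827 in U373neo after UV, against 2336, 2156 and 2603 untreated. After UV 0.703 of its untreated intensity was left in U373cc3 and 0.350 in U373neo, and the difference was 1.01 (SE 0.10, adjusted p = 0.000973). ATP2B2, a calcium pump of the plasma membrane, had 2382, 2233 and 2392 in U373cc3 after UV, against 3114, 3040 and 2926 untreated, and 1414, 1506 and 1629 in U373neo after UV, against 4284, 3679 and 3759 untreated (difference 0.99, SE 0.11, adjusted p = 0.00197). For both genes all 4 groups stood apart.

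DPYD, the first enzyme of pyrimidine breakdown, had 461, 472 and 402 in U373cc3 after UV, against 744, 795 and 738 untreated, and 316, 324 and 366 in U373neo after UV, against 1389, 1016 and 1159 untreated (difference 1.04, SE 0.16, adjusted p = 0.0066). AKAP13, an anchor of protein kinase A, had 494, 489 and 491 in U373cc3 after UV, against 830, 809 and 880 untreated. In U373neo it had 210, 240 and 217 after UV, against 1093, 610 and 771 untreated, and its difference was 1.08 (SE 0.22, adjusted p = 0.021). It did not pass without U373cc3 untreated replicate 2 or without U373neo UV replicate 3, where the adjusted p reached 0.0538. Nor did it pass by an adjusted t-test of the difference without moderation. The untreated clones overlapped for AKAP13, whereas after UV every U373cc3 value lay above every U373neo value.

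PXDN, a peroxidase of the extracellular matrix, had the largest positive difference among the called named genes, 1.19 (SE 0.18, adjusted p = 0.00652). It had 206, 144 and 164 in U373cc3 after UV, against 131, 123 and 155 untreated, and 149, 156 and 159 in U373neo after UV, against 260, 287 and 300 untreated. It passed with every replicate left out in turn and did not pass with the serial range as a term (1.09, adjusted p = 0.127). Nor did it pass on single arrays with the replicate as a random block. The PXDN probe is among the dimmest 0.25 of probes, so the alternative without those did not test it. ADH4, an alcohol dehydrogenase, had 470, 367 and 557 in U373cc3 after UV, against 251, 264 and 300 untreated. In U373neo it had 345, 301 and 341 after UV, against 350, 448 and 429 (difference 1.07, adjusted p = 0.017). It too lost its call on single arrays with the random block. HUNK, a protein kinase, had 517, 451 and 715 in U373cc3 after UV, against 398, 386 and 420 untreated, and 402, 424 and 416 in U373neo after UV, against 492, 683 and 715 untreated. Its opposite UV changes of 0.46 in U373cc3 and -0.59 in U373neo gave a difference of 1.04 (adjusted p = 0.027). This passed with 6 of the 12 replicates left out in turn and did not pass with the serial range as a term (1.25, adjusted p = 0.0873). HUNK also lost its call with the random block, with medians of technical arrays and by the adjusted t-test without moderation.

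FAM167B (1.14), CSF3R (1.11), MAP3K13 (1.04), AJUBA (1.03) and STYK1 (1.03) completed the 12 most positive differences among called genes and lost their calls most often of these 12 when a replicate was left out. In U373cc3 after UV, CSF3R, the receptor of the granulocyte growth factor G-CSF, had 258, 139 and 269, against 167, 165 and 174 untreated. AJUBA, a LIM domain protein, had 1510, 1115 and 1982 after UV, against 1277, 1237 and 1402 untreated. U373cc3 UV replicate 2 was the lowest of its group for these and for MAP3K13, STYK1, HUNK, ADH4 and PXDN. Of the 12 leave-out fits, FAM167B passed 2, CSF3R 2, MAP3K13 1, AJUBA 4 and STYK1 3, and with the serial range as a term FAM167B (adjusted p = 0.0594), CSF3R (0.0713), AJUBA (0.116) and MAP3K13 (0.138) did not pass. In U373neo CSF3R had 149, 151 and 163 after UV, against 238, 268 and 290 untreated, and AJUBA had 999, 1114 and 1118 after UV, against 1694, 1939 and 2142.

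**Figure D3:**
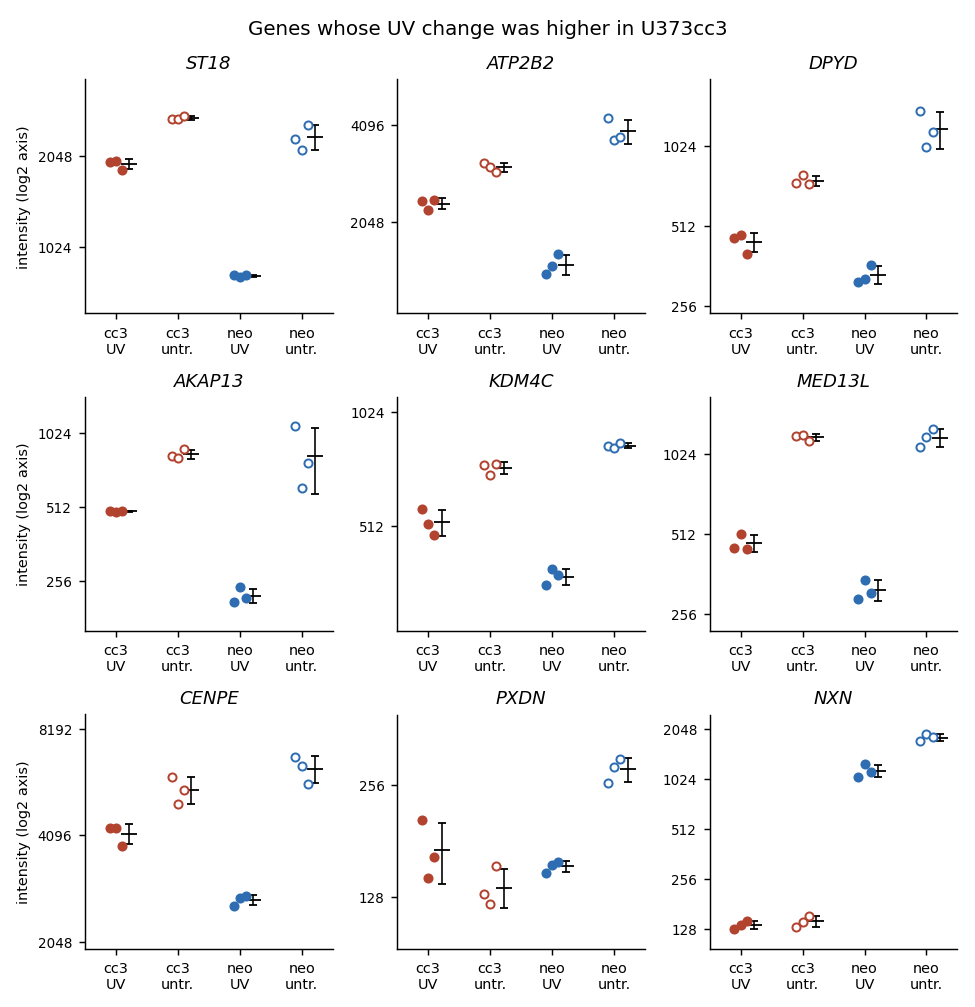
Intensity (log2 axis) of 9 genes in each of 3 replicates a group, drawn as in the plot of the lower genes, with the mean and SD as a black bar. ST18, ATP2B2, DPYD, AKAP13, KDM4C and MED13L fell in both clones and lay lowest in U373neo after UV. NXN stayed between 128 and 153 in U373cc3, near the dim end of the scale.

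Lower and higher genes differed in length. The median length of the 335 lower genes was 13851 bases and that of the 187 higher genes 163155 bases, against 29492 over all genes, lengths being the RefSeq span of a gene on GRCh38.p14 (7957 of 7998 genes had one). Among 746 genes shorter than 5 kb, 58 were lower and 3 higher, that is 7.77% and 0.402%. Of the 248 genes of 300 kb or more, 0 were lower and 42 higher, 0% and 16.9%. The median difference was -0.12, -0.13 and -0.11 in the bins under 5, from 5 to 10 and from 10 to 20 kb. It was -0.05 from 20 to 50 kb, 0.04 from 50 to 100 kb, 0.13 from 100 to 200 kb, 0.20 from 200 to 300 kb and 0.26 from 300 kb on. Genes are not independent replicates, and this pattern was noticed in these data and has no test.

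Medians of the clones differed at both ends of the scale. Quantile normalization gave all arrays the same distribution, so a change is relative to the other genes of an array. A fall of long genes alone and a rise of short ones cannot be told apart here. Genes under 5 kb had a median UV change of 0.28 in U373cc3 and of 0.36 in U373neo, and genes of 300 kb or more one of -0.20 in U373cc3 and of -0.49 in U373neo. The untreated clones differed by a median of 0.01 to 0.04 in all bins, whereas after UV the median of U373cc3 minus U373neo was -0.06 in the shortest bin and 0.28 in the longest. Against the mean of its untreated clone, the median of the longest genes was -0.19, -0.18 and -0.25 in the 3 UV replicates of U373cc3, against -0.57, -0.44 and -0.46 in those of U373neo, with no overlap. The shortest genes had 0.25, 0.27 and 0.28 in U373cc3, against 0.40, 0.36 and 0.34 in U373neo. With arrays of range A alone, where UV in U373cc3 is replicate 3 only, the longest genes had -0.27 in U373cc3 and -0.44 in U373neo, and the medians of the difference were 0.22 for the longest and -0.12 for the shortest genes. In range B, which holds no U373neo UV array, the longest genes of U373cc3 had -0.16.

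Level moved with length as well. The median intensity was 1569 for genes under 5 kb and 597 for those of 300 kb or more. Within 4 equal classes of mean intensity, from dim to bright, the longest genes had median differences of 0.18, 0.27, 0.35 and 0.30 (87, 91, 52 and 18 genes), and the shortest -0.07, -0.14, -0.17 and -0.09. The share of lower genes was 7.35% in the dimmest class and 1.30% in the brightest, and that of higher genes 1.00% and 2.20%. Named genes of the long class were DPYD (843 kb), KDM4C (455 kb), ATP2B2 (384 kb), AKAP13 (369 kb) and MED13L (319 kb). ST18 spans 299 kb, SRPK2 285 kb and MAP3K13 206 kb. On the other side FOS spans 3.40 kb, EGR1 3.83 kb, ARC 3.43 kb, DUSP1 3.10 kb, DUSP2 2.27 kb and ADM 2.33 kb. The length of the transcript's introns, its half-life and the place of its probe were not tested.

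**Figure D4:**
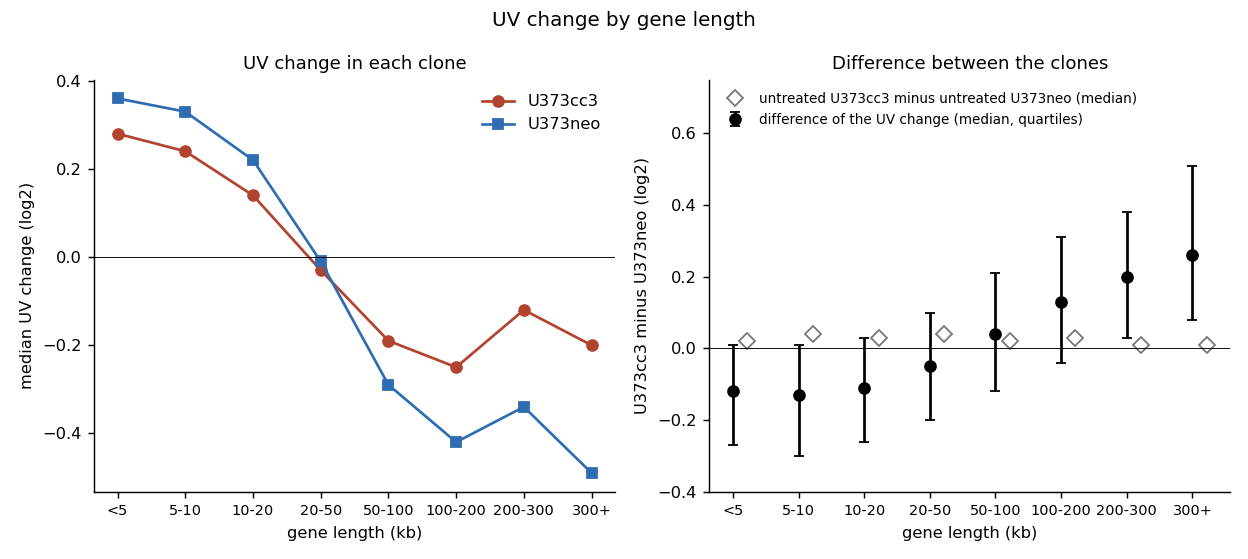
Left, median UV change (log2) of genes in 8 bins of gene length in U373cc3 (red) and U373neo (blue). Right, median difference of the UV change with its quartiles (black) and the median difference of the untreated clones (open diamonds), U373cc3 minus U373neo. The lines cross near 20 to 50 kb, and the difference goes through -0.12 at the short end and 0.26 at the long end while the untreated difference stays between 0.01 and 0.04.

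Of 60 measured genes of RNA polymerase II, P-TEFb and Mediator, 3 were lower and 1 higher, shares near the 4.19% and 2.34% of all genes. MED13L, a long kinase-module subunit of Mediator, had 453, 513 and 450 in U373cc3 after UV, against 1192, 1210 and 1147 untreated, and 290, 344 and 306 in U373neo after UV, against 1088, 1182 and 1274 untreated (difference 0.59, adjusted p = 0.0218), and it passed with 10 of the 12 replicates left out in turn. The lower members were POLR2D (-0.56), MED9 (-0.53) and NELFA (-0.44), a polymerase subunit, a Mediator subunit and a pausing factor, of which POLR2D and NELFA passed with 2 of the 12 replicates left out in turn. Of 16 measured chromatin regulators 1 was called, the demethylase gene KDM4C. It had 568, 520 and 487 in U373cc3 after UV, against 742, 698 and 747 untreated, and 359, 395 and 381 in U373neo after UV, against 830, 824 and 848 (difference 0.67, SE 0.10, adjusted p = 0.0066). UV lowered 14 of these 16 in U373cc3 and 15 in U373neo, where 30.0% of all genes fell in U373cc3 and 30.1% in U373neo. Of 55 splicing genes, SRPK2, an SR protein kinase, was the 1 called (0.55, adjusted p = 0.0295). It passed with 6 of the 12 replicates left out in turn. It did not pass on the values as deposited, with each array centred on its median or with the replicate block.

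Most called cell cycle genes had a higher UV change in U373cc3. Of 46 measured, 5 were higher and 1 lower, beside 2.34% higher and 4.19% lower among all genes. CENPE, a kinetochore motor, fell in U373cc3 to 4299, 4304 and 3820 after UV, against 6001, 5026 and 5508 untreated, and in U373neo to 2588, 2730 and 2760, against 6803, 6415 and 5706 (difference 0.81, SE 0.13, adjusted p = 0.00737). MKI67 (0.68), CENPA (0.49), KIF4A (0.39) and AURKA (0.34) are likewise genes of mitosis, and a second probe of CENPA gave 0.21 (adjusted p = 0.51). MKI67 and CENPA each passed with 3 of the 12 replicates left out in turn. The lower member was CDC6, which licenses replication origins before S phase. It had 4143, 4040 and 3821 in U373cc3 after UV, against 3996, 3550 and 3843 untreated, and 4368, 4446 and 4611 in U373neo after UV, against 2974, 2979 and 2680 untreated (difference -0.56, adjusted p = 0.0131).

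No member of the DNA repair lists passed, where 4.19% of all genes were lower and 2.34% higher. Measured were 24 genes of nucleotide excision repair, 23 of base excision and mismatch repair, and 35 of translesion synthesis, checkpoint and break repair. By limma 3, 5 and 7 of them had an unadjusted p under 0.05. By a t-test of the difference without moderation, with adjustment, 0, 0 and 0 passed. Their median differences were -0.05, -0.05 and 0.05. DDB2, the subunit that recognises UV lesions in chromatin, had 442, 461 and 443 in U373cc3 after UV, against 331, 352 and 299 untreated, and 1372, 1497 and 1561 in U373neo after UV, against 840, 865 and 871 untreated. It rose in both clones, 1.37-fold in U373cc3 and 1.72-fold in U373neo, and its difference of -0.32 (SE 0.11, adjusted p = 0.0914) did not pass. UV raised 10 of the 24 excision repair genes in U373cc3 and 11 in U373neo, beside 27.9% of all genes in U373cc3 and 32.2% in U373neo.

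CDKN1A, which encodes the CDK inhibitor p21, had 3743, 3991 and 3896 in U373cc3 after UV, against 4479, 3724 and 3612 untreated, and these overlapped. In U373neo it had 3999, 4305 and 4092 after UV, against 2579, 3175 and 3018, with no overlap. The difference was -0.52 (SE 0.14, adjusted p = 0.0469), and it passed with 2 of the 12 replicates left out in turn. It did not pass on the values as deposited, with each array centred on its median or with medians of technical arrays. Nor did it pass with the replicate block or by the adjusted t-test without moderation. PMAIP1 (NOXA), a BH3-only gene, rose 2.07-fold in U373cc3 and 3.40-fold in U373neo (difference -0.72, adjusted p = 0.035). It was the 1 of 20 measured p53 target and apoptosis genes that passed, beside 4.19% lower among all genes. It passed with 5 of the 12 replicates left out in turn. NXN, nucleoredoxin, had 128, 134 and 142 in U373cc3 after UV, against 132, 140 and 153 untreated, and 1056, 1255 and 1136 in U373neo after UV, against 1739, 1904 and 1833 untreated. It fell in U373neo alone by the test, and the difference was 0.60 (SE 0.12, adjusted p = 0.0187). All U373cc3 values lie below the log2 intensity of 8.36 that bounds the dimmest 0.25 of probes. Whether so low a level left room for a fall in U373cc3 was not tested. The transcript was 12.9-fold lower in untreated U373cc3 than in untreated U373neo, and 8.52-fold lower after UV.

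Other stress lists held few calls, beside 4.19% lower and 2.34% higher among all genes. In the redox list, HMOX1 (-0.66) and SRXN1 (-0.60), targets of NRF2, were lower and NXN higher among 21 measured genes. HMOX1, heme oxygenase, had 1179, 1170 and 1077 in U373cc3 after UV, against 1373, 1210 and 1200 untreated, and 429, 496 and 468 in U373neo after UV, against 333, 318 and 323 untreated. Of 23 genes of the integrated stress response, DDIT4 (-0.53) and TRIB3 (-0.50) were lower, passing with 5 and 4 of the 12 replicates left out in turn, and the list's median was -0.21. None of 10 measured genes of NF-kappaB and its feedback passed, nor of 17 chaperones, 13 histone genes, 7 interferon response genes and 25 cytosolic ribosomal protein genes. In the same order 3, 1, 4, 1 and 2 of them had an unadjusted p under 0.05 by limma. By the t-test without moderation, with adjustment, 0 of each passed. Among 52 measured nuclear transport genes, KPNA3, an importin alpha, was higher (0.49, adjusted p = 0.0218) and NXT1, an mRNA export factor, lower (-0.49, adjusted p = 0.0224), with a median of 0.05. With a replicate left out in turn, KPNA3 passed in 10 and NXT1 in 8 of 12 fits. HEY1, a Notch target, rose 1.57-fold in U373cc3 and 2.36-fold in U373neo (difference -0.59, adjusted p = 0.00808). LAMC1, a laminin chain, was the 1 called of 25 measured matrix genes and fell less in U373cc3 (-0.96) than in U373neo (-1.48), a difference of 0.52 (adjusted p = 0.017).

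**Figure D5:**
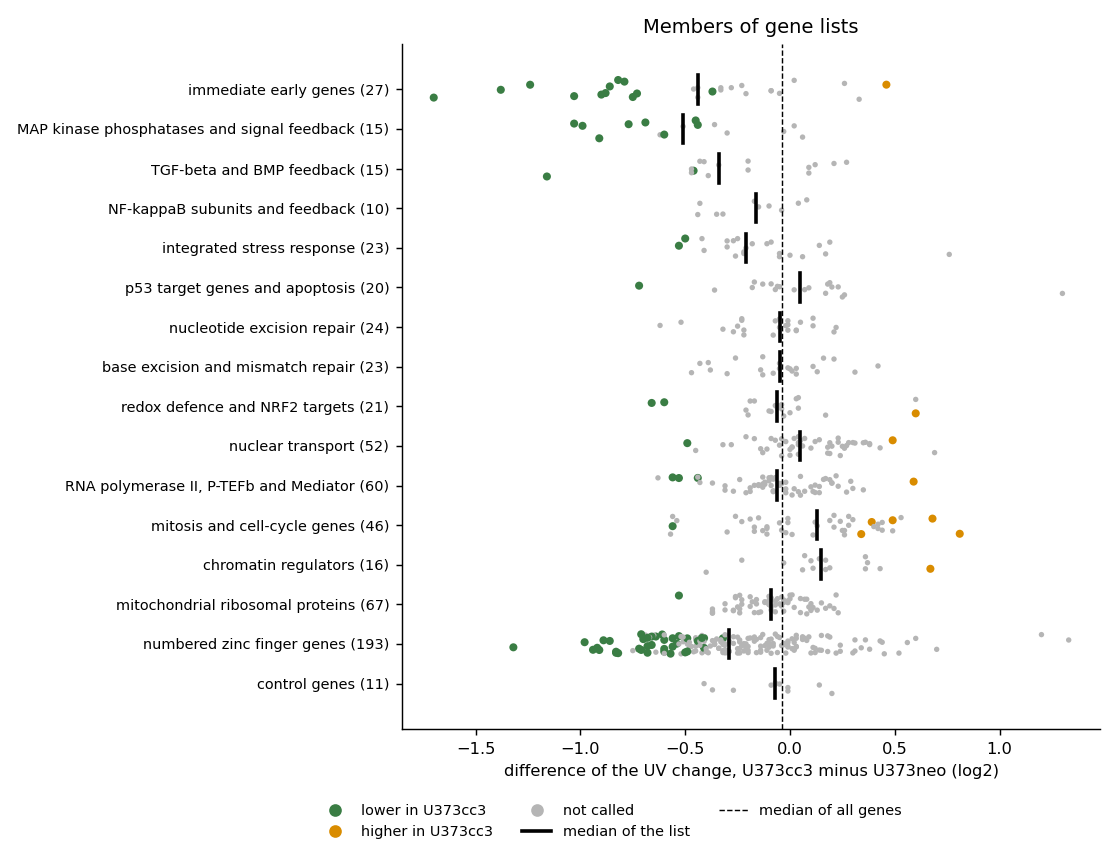
Difference of the UV change (U373cc3 minus U373neo, log2) of each measured member of 16 gene lists, with the number measured in brackets, the median of a list as a bar and the median of all genes, -0.04, as a dashed line. Immediate early genes and signal feedback genes have medians of -0.44 and -0.51, whereas excision repair and control genes have -0.05 and -0.07.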

How the data were processed

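RNA of 4 groups of U373 clones was hybridized with a single dye (Cy5) to human oligonucleotide arrays, 3 biological replicates a group and 3 arrays a replicate. The authors scanned the arrays, quantile normalized the intensity values and deposited them for 18 untreated and 18 UV arrays. The median deposited intensity was 894.93 to 896.01 in untreated and 746.27 to 748.14 in UV arrays. Values of untreated and UV arrays were therefore quantile normalized together over the 11602 probes with a value on every array, and then taken to log2. Probes with values on every untreated array numbered 12300, and those with values on every UV array 12343. Technical arrays were averaged, and a 4-group model of the 12 means was fitted with limma 3.58.1 in R 4.3.3, with empirical Bayes moderation, Benjamini-Hochberg adjustment over all 11602 probes and an adjusted p under 0.05. The labels call the replicates biological and do not say how the cultures were kept apart, so p-values measure the spread between these samples, which may be technical.

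Of these probes, 8799 carried 1 gene symbol, of which 1345 were updated through RefSeq, and 2803 had none in the tables used here. The brightest probe stood for a gene in lists. Of 59 genes with several probes and a call, 13 had all probes called, 46 had some not called and 0 had calls in opposite directions. Named were the 12 most negative and 12 most positive called genes, up to 5 with opposite UV changes, up to 4 called members of each list, and FOS, EGR1, DDB2, NXN, CDKN1A and HTATIP2; other list members were named after their values were seen. The members and lists were chosen with earlier results of these data known, and the list of numbered zinc finger genes and that of Krüppel-like factors were added after their values were seen. Motifs were searched on both strands. The fit was tested on simulated data. Alternatives covered normalization, dim and bright probes, technical arrays, serial range, replicate block, moderation, a t-test without moderation and each replicate left out. That t-test was of the same difference between UV changes. The study's methods name t-tests and no model of such a difference.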

Additional observations from a re-analysis of the deposited data

Results flagged for a closer look

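The results below are those whose UV change differed between the clones by the interaction test of limma among the named genes, with the difference as U373cc3 minus U373neo on the log2 scale. Among immediate early genes and signal feedback these were FOS (-1.70), ATF3 (-1.38), ARC (-1.24), EGR1 (-1.03), DUSP1 (-1.03) and DUSP10 (-0.99). Other genes with a lower UV change in U373cc3 were ZNF816 (-1.32), TBX2 (-1.16), SMAD7 (-1.16), ADM (-1.03), PAX9 (-0.99), ZNF26 (-0.98) and CDKN1A (-0.52). Genes with a higher UV change in U373cc3 were PXDN (1.19), FAM167B (1.14), CSF3R (1.11), AKAP13 (1.08), ADH4 (1.07), DPYD (1.04), HUNK (1.04), MAP3K13 (1.04), AJUBA (1.03), STYK1 (1.03), ST18 (1.01), ATP2B2 (0.99) and NXN (0.60). FOS, ATF3, ARC, EGR1, DUSP1, TBX2, ST18, ATP2B2 and DPYD passed under every alternative, leaving aside range A alone, whose calls are not read. The unadjusted t-test passed all 716 probes and so tells none of them apart. The probes of ZNF816, SMAD7, ADM, PAX9, DUSP10, ZNF26, PXDN, CSF3R, MAP3K13 and STYK1 are among the dimmest 0.25. The alternative without dim probes therefore did not test these genes.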

How the results depend on the processing

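All 716 probes kept the sign of their difference under each alternative that tested them. The number called, with lower and higher in brackets, was 1404 (863, 541) on single arrays with the replicate as a random block. It was 1803 (1162, 641) with the serial range as a term. By the t-test without moderation it was 2647 (1594, 1053) without adjustment, against 519 (335, 184) with it. Leaving out 1 replicate gave 230 to 977 probes in all, 132 to 553 lower and 98 to 424 higher. The count of lower zinc finger genes, 37, was 60 on single arrays with the random block, 73 with the serial range as a term and 24 with the replicate block. It was 20 and 80 by the t-test without moderation, with and without adjustment, and 11 to 41 with a replicate left out. The 8 lower feedback genes became 5 with the replicate block and 5 by the adjusted t-test, and 3 to 9 with a replicate left out. The fit of range A alone rests on 1 biological sample of U373cc3 after UV, so genes that kept or lost a call in it are not listed. The cause of these shifts was not tested. The medians of genes of 300 kb or more stayed between 0.22 and 0.30, and of those under 5 kb between -0.13 and -0.10. With 3 replicates a group the median SE of a difference was 0.138, and 1 clone stands for each state of CC3.

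Same-numbered replicates deviated together at r = -0.338 to 0.367, with 6 of 18 pairs over 0.1, and 4 of 12 replicates correlated best with their own number. The labels do not say whether same-numbered samples were handled together. These correlations cannot exclude it, and the main fit did not pair them. The fit with the replicate block called 448 probes (296 lower, 152 higher).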

Other observations

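Calls were spread unevenly over the chromosomes. Over all genes 4.19% were lower and 2.34% higher. On chromosome 19, 41 of 509 genes had a lower UV change in U373cc3 (8.06%) and 0 a higher one, with a median difference of -0.12. The called zinc finger genes ZNF26 and ZNF140 lie on chromosome 12, and ZNF140 passed with 3 of the 12 replicates left out in turn. ZNF816 and ZNF614 lie on chromosome 19. The chromosome 19 count therefore shares genes with the zinc finger list and is not a separate observation. On chromosome 13, 9 of 126 genes had a higher UV change (7.14%) and 4 a lower one (3.17%), and there the untreated clones differed by a median of -0.75 (U373cc3 minus U373neo, log2). On chromosome 11 the untreated median was -0.47, while 19 of 475 genes were lower (4.00%) and 12 higher (2.53%). Chromosomes were compared after their values were seen, and no test was made.

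ATP5MK, a small subunit of ATP synthase, was the 1 called of 58 measured genes of oxidative phosphorylation, where 4.19% of all genes were lower and 2.34% higher. It had 1736, 1628 and 1631 in U373cc3 after UV, against 499, 455 and 419 untreated, and 2042, 1698 and 2095 in U373neo after UV, against 356, 321 and 290 untreated. It rose in both clones, 3.65-fold in U373cc3 and 6.03-fold in U373neo, and the difference was -0.73 (SE 0.14, adjusted p = 0.0191). Among 18 Wnt and Notch genes, 2 were lower and 1 higher, beside 4.19% and 2.34% of all genes. FZD1, a Wnt receptor, fell in U373cc3 (-0.84) and did not pass in U373neo (-0.16, difference -0.69). DKK3, a secreted protein of the Dickkopf family, had a UV change of 0.13 in U373cc3, which did not pass, and fell in U373neo (-0.36, difference 0.49). With a replicate left out in turn, FZD1 passed in 8 and DKK3 in 5 of 12 fits, and DKK3 did not pass with the replicate block.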
